A study of Caenorhabditis elegans with 4 samples.

Results

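The left 5 Mb of chromosome IV of Caenorhabditis elegans held 613 of the 6659 ZIM-3 ChIP-seq peaks in the authors' list for the whole series, called the series-wide list here. A peak was counted when it lay on IV and its midpoint was at or below position 5000000 of the WormBase build WS220. The stretch makes up 28.6% of chromosome IV and 4.99% of the nuclear genome, with the length of each chromosome taken as the last base of any peak in the 3 deposited lists. The members were chosen by position, not by score, width or overlap. The last member, at IV 4999473 to 4999619, scored 5.76, and the first peak beyond the limit, at IV 5035301 to 5035758, scored 10.29.

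ZIM-3 belongs to a family of C. elegans zinc finger proteins, ZIM-1, ZIM-2, ZIM-3 and HIM-8, each of which serves 1 or 2 chromosomes in meiotic prophase. ZIM-3 serves chromosomes I and IV. These proteins sit on pairing centers, regions near 1 end of each chromosome that tether it to the nuclear envelope and help homologous chromosomes to pair and synapse. The pairing center of chromosome IV lies towards its left end.

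The ChIP group held 2 samples, numbered replicates 1 and 2, of hermaphrodites with the genotype fem-2(b245)III, grown at 20 °C and labelled as young adults that contain a germline. fem-2 is a gene of the sex determination pathway, and the allele was carried by the 2 input DNA samples as well. ChIP was done on whole adult worms with SDQ3949, an affinity-purified rabbit polyclonal antibody against ZIM-3, so germline and somatic nuclei were not separated. No list of the input samples was used, and the series holds no other genotype, antibody or stage, so no contrast between groups of samples could be made. Whether these replicates were separate cultures is not stated, and differences between them may be technical. The replicates had peak lists of very different length, 6079 peaks in replicate 1 and 1211 in replicate 2, and read depth is unknown. A peak missing from the shorter list is therefore no measure of absent binding. Scores are the authors' own on a scale that is not named, and they were read within each list. Peaks of 1 library are not independent replicates, so regions are compared as a description, with no test, and the exact binomial 95% intervals cover counting error only.

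The strongest members stood in a short group near the tip, and all of them were present in both replicates. The peak at IV 195277 to 197054 scored 233.1 in the series-wide list, the highest score of all 6646 nuclear peaks. Replicate 1 scored it 3100 and replicate 2 scored it 3100, a score shared by many peaks of either list. Second in rank was IV 215444 to 216492 with a score of 150, again with 3100 in replicate 1 and 3100 in replicate 2. Next came IV 124502 to 125497 with a score of 146, for which the replicates gave 2223 in replicate 1 and 2362 in replicate 2. A peak at IV 229730 to 231197 scored 125 and ranked seventh, with 3100 in replicate 1 and 2870 in replicate 2. These were the 4 members with a score of 100 or more, a level reached by 16 nuclear peaks in all (0.241%). The left 5 Mb of X held 2 such peaks, that of II held 1, and those of III and V held 0.

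The group was sparse rather than crowded. Between the first and the last of the 4 leading peaks lay 107 kb, which held 8 members in all. The other 4 members there scored between 3.85 and 8.37, and 2 of them overlapped a peak of replicate 1 while the other two overlapped none. The leading peaks were 1778, 1049, 996 and 1468 bp wide in the order of their scores. A weaker neighbour at IV 122720 to 123623 scored 39.08, with 864 in replicate 1 and 216 in replicate 2. Another at IV 281173 to 281781 scored 28.67, with 921 in replicate 1 and 50.4 in replicate 2, near the lowest score of that list. These 6 peaks were the members of the outer 0.5 Mb that belonged to the highest-scoring 10% of nuclear peaks, and each overlapped a peak of both replicates.

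**Figure D1:**
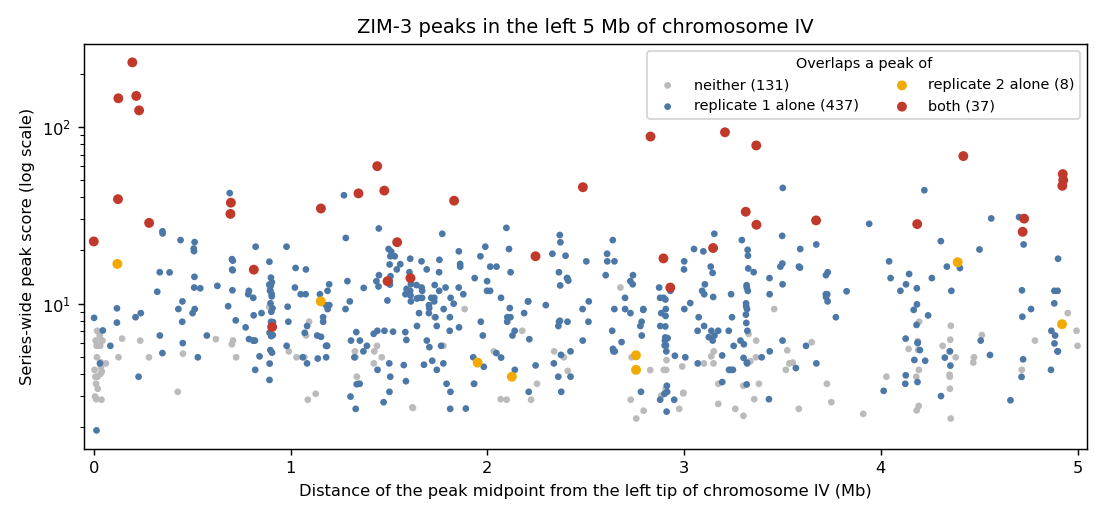
Series-wide peak score (log scale) of each of the 613 peaks against the distance of its midpoint from the left tip of chromosome IV in Mb; colors show which replicate lists the peak overlaps by at least 1 bp. The 4 peaks with scores of 100 or more lie within 107 kb near the tip, and the 37 peaks found in both replicates spread over the whole 5 Mb.

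Further inward the next leading members had widths from 575 to 5716 bp. The one at IV 3206281 to 3209616 scored 93.6 with a width of 3336 bp, and it had 3100 in both replicates. Another at IV 2828418 to 2830628 scored 88.5 with a width of 2211 bp, also with 3100 in both replicates. The widest member, at IV 4416358 to 4422073, scored 68.6, and measured 5716 bp in the series-wide list, 5602 bp in replicate 1 and 5716 bp in replicate 2. It too had 3100 in both lists. In contrast, the peak at IV 3366608 to 3367182 had a width of 575 bp and scored 78.8, with 1009 in replicate 1 and 1401 in replicate 2. Its neighbour at IV 3367390 to 3368097 scored 27.99 and was also among the highest-scoring 10%.

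Other leading members stood at different places in the replicate lists relative to list length. As the lists differ so much in length, their ranks are not directly comparable. At IV 1440269 to 1441045 the series-wide score was 60.2, and replicate 1 scored it 891 (rank 501 of 6079) while replicate 2 scored it 131 (rank 663 of 1211). At IV 2485291 to 2486496 it was 45.7, with 2678 in replicate 1 (rank 195) and 70.01 in replicate 2 (rank 991). A member at IV 688657 to 693510 was the second widest member with 4854 bp and scored 42.3. It overlapped 3 peaks of replicate 1, the highest of them at 3100, and none of replicate 2. Its neighbours at IV 693570 to 695650 and IV 695705 to 698287 scored 32.25 and 37.3; both had 3100 in replicate 1 and scored 72.8 and 117 in replicate 2. These 3 peaks followed each other with gaps of at most 59 bp. Replicate 1 gave 3100 or more to 11 of its 555 peaks in the left 5 Mb of IV (background 2.09% of its list), and replicate 2 to 5 of its 53 there (background 5.28%).

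The leading members of the other bins of 500 kb scored between 38.3 and 54.2. One at IV 1830973 to 1831635 scored 38.3, with 540 in replicate 1 and 411 in replicate 2, and led the bin from 1.5 to 2 Mb. The bin from 3.5 to 4 Mb was led by IV 3501517 to 3501824 with a score of 45.3, with 468 in replicate 1 and no counterpart in replicate 2. A peak at IV 4923711 to 4925271 led the innermost bin with 54.2. In 8 of the 10 bins the leading member overlapped peaks of both replicates, and in the other two a peak of replicate 1 alone.

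Most members were weak and narrow. Their median score was 7.89, with quartiles of 4.96 and 12.81 and a lowest score of 1.91, and 375 of the 613 (61.2%) scored under 10. Their median width was 282 bp, with quartiles of 208 and 418 bp and a smallest width of 146 bp. The median score of the rest of IV was also 7.89, and the left 5 Mb of II, III, V and X had medians of 8.22, 7.15, 5.76 and 7.12. Only 35 members (5.71%, interval 4.01% to 7.85%) belonged to the highest-scoring 10% of nuclear peaks, against 12.5% of the peaks on the rest of IV, 13.9% on left II, 9.61% on left III, 8.59% on left V and 12.6% on left X (background 10% of all nuclear peaks). At least 1 kb wide were 27 members (4.40%), against a background of 9.09%, 11.1% on the rest of IV, 13.0% on left II, 6.91% on left III, 7.29% on left V and 9.31% on left X. In number, these 27 broad peaks lay within the range of the other left ends of 5 Mb, which had 47 on II, 23 on III, 28 on V and 31 on X. Of these 27, 18 were among the highest 10% and 14 were found in both replicates.

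**Figure D2:**
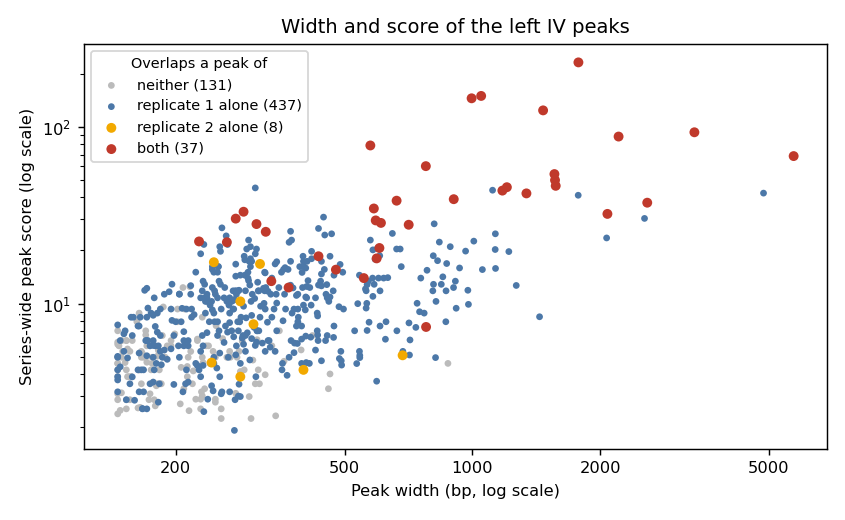
Width (bp, log scale) and series-wide score (log scale) of the 613 peaks, colored by the replicate lists they overlap. Score and width rise together (Spearman's rho 0.56 across peaks), and the peaks found in neither replicate lie at the lower left, with a median width of 195 bp.

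Score and width went together among the members, with a Spearman's rho of 0.56 over 613 peaks that share 1 list. Neither followed the distance from the tip: rho was -0.05 for score and -0.06 for width.

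In the series-wide list, the number of members was higher from the tip to about 3.5 Mb than beyond. From the tip inward, the successive bins of 500 kb held 57, 69, 71, 93, 56, 71, 80, 29, 53 and 34 series-wide peaks. The bin from 1.5 to 2 Mb was the fullest and that from 3.5 to 4 Mb the emptiest. Replicate 1's own list gave 34, 70, 66, 96, 52, 63, 76, 24, 36 and 38 peaks in the same bins. Its fullest and emptiest bins were those of the series-wide list. Its outer 0.5 Mb, however, held 34 peaks, fewer than the bins from 4 to 5 Mb with 36 and 38. Replicate 2's list gave 10, 5, 7, 4, 3, 6, 5, 1, 3 and 9, with its highest counts at the tip and at the inner limit. Some of these peaks lay within the same member. The members that overlapped replicate 2 numbered 8, 4, 6, 4, 3, 5, 5, 1, 3 and 6 in these bins. The fullest bin thus differed between the 2 replicate lists, while both had the fewest peaks from 3.5 to 4 Mb. Replicate 2's counts per bin are too small to rank its bins firmly. Across 50 windows of 100 kb, the counts of the series-wide list had a rho of 0.88 with those of replicate 1 and 0.37 with those of replicate 2, and the replicates had 0.35 with each other.

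**Figure D3:**
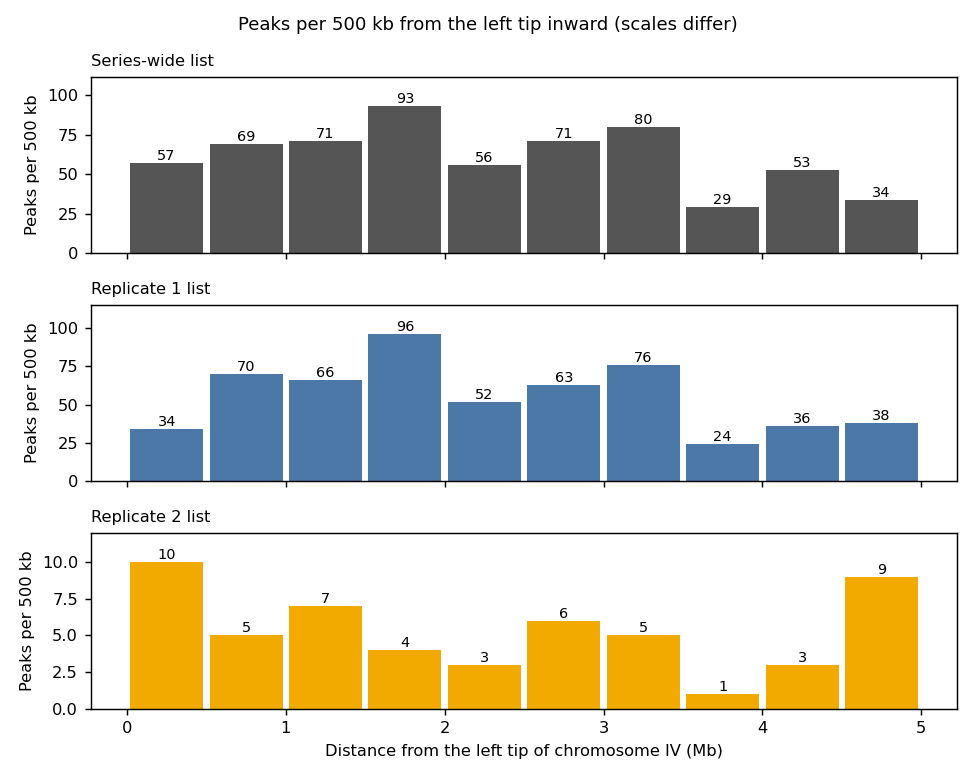
Number of peaks per 500 kb against distance from the left tip of chromosome IV in Mb, for the series-wide list and each replicate's own list, with the count above each bar and a separate scale in each panel. Replicate 1 is highest from 1.5 to 2 Mb with 96 peaks, and replicate 2 in the outer 0.5 Mb with 10.

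At the very tip the members were numerous but weak. The first 100 kb held 27 peaks with a median score of 4.58, of which 21 overlapped a peak of neither replicate. The first member, at IV 1 to 227, was the exception with a score of 22.5, with 473 in replicate 1 and 614 in replicate 2. The next ones lay at 1633 to 1925 with a score of 8.30, at 4096 to 4241 with 4.21, at 6372 to 6669 with 2.97 and at 8298 to 8454 with 3.85. Of these, the first overlapped a replicate 1 peak and the others none. Replicate 1's own list had 8 peaks in the first 100 kb and replicate 2's had 1. Counts in the first 100 kb of the other chromosomes were 36 on X, 6 on III, 5 on V and 2 on II. Of these, 17 on X, 1 on III, 2 on V and 0 on II overlapped neither replicate, and the median score on X was 5.16. Over the whole outer 0.5 Mb, 47.4% of the members (27 of 57) were found in neither replicate, against 24.1% of all nuclear peaks. The share was 10.1% from 0.5 to 1 Mb and 6.45% from 1.5 to 2 Mb. In the outer 0.5 Mb of the other chromosomes, 15 of 34 peaks on II, 38 of 104 on X, 12 of 59 on III and 3 of 14 on V were in neither. Peaks without a counterpart near the tip were thus not particular to IV.

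Members lay close together with short empty stretches. The median distance between neighbouring midpoints was 2388 bp, with quartiles of 785 and 10213 bp, and 310 members had a neighbour within 1 kb. On the rest of IV the median was 3816 bp, and on the left 5 Mb of II, III, V and X it was 3755, 6223, 2581 and 2724 bp. Joined when their edges lay within 10 kb, the members formed 151 regions with a median of 2 peaks. Of these regions 46 held a single peak, and 16 regions of 10 or more peaks held 235 members (38.3%). The longest stretch without a member ran for 96.4 kb, from the end of a peak at IV 4559786 to 4562330 (score 30.4) to a peak at IV 4658757 to 4658916 (score 2.83). Replicate 1 had 1 peak in that stretch and replicate 2 had 0. None of the 50 windows of 100 kb was without a member, and 9 windows held 20 or more, with 215 members in all.

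The densest window, IV 3300001 to 3400000, held 30 members with 24 peaks in replicate 1 and 3 in replicate 2. Its leading member was the narrow peak of score 78.8 at IV 3366608 to 3367182. The fullest joined regions were IV 1 to 46229 and IV 891479 to 910946, with 25 members each. They differed in content: in the first the strongest member was the tip peak of score 22.5, while in the second the peaks were 19.5 kb from end to end, with scores from 3.69 to 17.3 and a median of 9.41.

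In the region from IV 891479 the peaks followed a repeated order of widths and distances, a pattern chosen for description after its values were seen. The region opened with peaks of 187, 565 and 346 bp, with midpoints 544 and 622.5 bp apart. These resembled the start of the units described next, but the peaks after them were 146, 237 and 534 bp wide. The peaks of 146 and 237 bp overlapped the same replicate 1 peak, which was 439 bp wide. The first of the units described next began 4139 bp after the start of the region, close to the distances between those units. The opening peaks thus kept a similar distance, with 1 peak more than a unit. A unit of 5 peaks began at IV 895618 with widths of 216, 562, 282, 427 and 741 bp. The next unit began at IV 899770 with widths of 217, 632, 283, 405 and 751 bp. The one after it began at IV 903914 with widths of 204, 583, 312, 380 and 778 bp. The first midpoints of these 3 units were 4153 and 4138 bp apart, and the last of them was followed by the next peak of the stretch after 4541 bp from its first midpoint. Within the first unit the midpoints were 543, 650, 578 and 785 bp apart, and within the second 519, 680, 573 and 784 bp. Within the last they were 558, 642, 649 and 731 bp apart; its last pair of distances departed most from the others. Replicate 1's own list held 22 peaks in this region and replicate 2's held 1. Of the 25 series-wide peaks, 22 overlapped replicate 1 alone, 1 overlapped both replicates and 2 overlapped neither.

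A second repeated spacing involved peaks that scored high in the series-wide list and overlapped peaks of both replicates. A run of 3 broad peaks followed each other at IV 4921438 to 4923009, IV 4923711 to 4925271 and IV 4925997 to 4927562, with widths of 1572, 1561 and 1566 bp. Their midpoints were 2268 and 2289 bp apart. Their series-wide scores were 46.5, 54.2 and 50.1, and in replicate 1 they had 2374, 2257 and 2460. In replicate 2 they had 110, 350 and 478, so that list ordered them differently. These scores ranked 724, 356 and 279 among its 1211 peaks. The near-equal widths were not seen in replicate 2. Its list had 3 peaks of 390, 298 and 219 bp at the first site, and peaks of 926 and 1307 bp at the others. Genome sequence was not used here, so whether the DNA of these stretches is repeated was not tested.

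**Figure D4:**
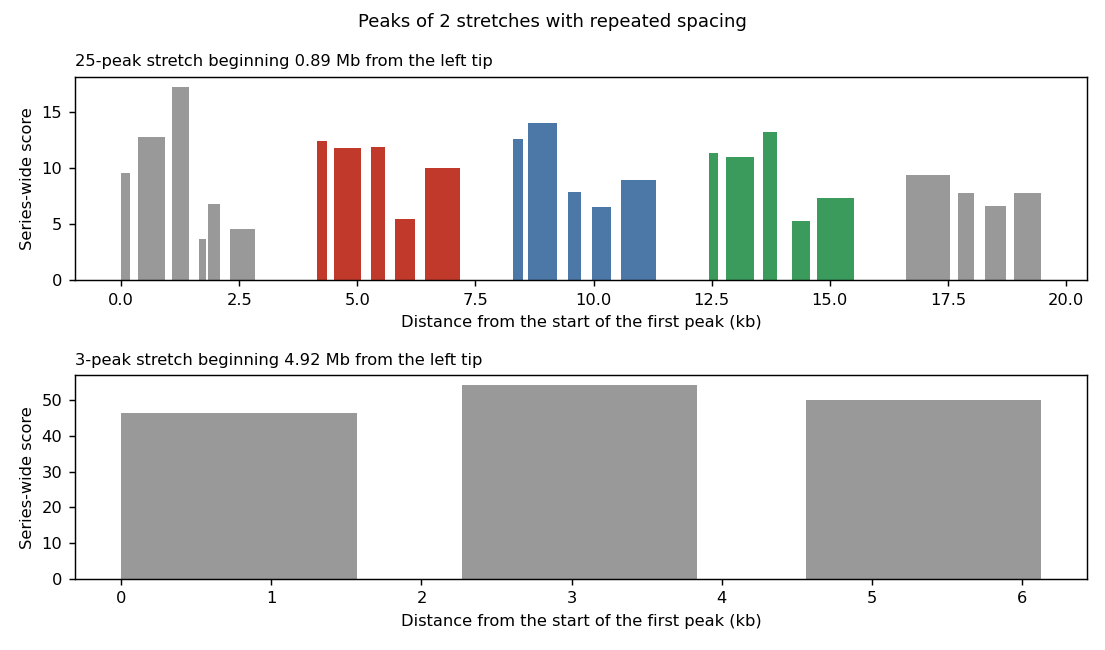
Peaks of the stretches from IV 891479 (top, 25 peaks) and from IV 4921438 (bottom, 3 peaks), drawn to scale in kb from the start of the first peak, with bar width as peak width and bar height as series-wide score. The 3 units of 5 peaks are colored red, blue and green in the top panel and repeat after 4153 and 4138 bp; the 3 peaks of the bottom panel have nearly equal widths and distances.

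Overlap with the replicates was almost entirely overlap with replicate 1. Of the 613 members, 474 (77.3%, interval 73.8% to 80.6%) shared at least 1 bp with replicate 1, where the background over nuclear peaks was 72.5%. Replicate 2 was met by 45 members (7.34%, interval 5.40% to 9.70%; background 14%). Peaks of both replicates were overlapped by 37 members (6.04%, interval 4.29% to 8.22%; background 10.6%), and of replicate 1 alone by 437 (71.3%; background 62%). Another 131 members (21.4%; background 24.1%) overlapped neither list, and 8 (1.31%; background 3.4%) overlapped replicate 2 alone. The share in both replicates was 12.4% on the rest of IV, 13.3% on left II, 8.41% on left III, 7.81% on left V and 17.7% on left X. All 5 were above the share of the members, with the nearest intervals on left III (5.66% to 11.9%) and left V (5.33% to 10.97%). The intervals treat neighbouring peaks as independent, so they give no test between regions.

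Series-wide scores are not independent of the replicate lists, which come from the same ChIP samples. Members found in both replicates were the higher-scoring ones. Their median score was 34.6, against 9.31 for those in replicate 1 alone, 6.37 for those in replicate 2 alone and 4.63 for those in neither. In the highest-scoring 10%, 26 of 35 members (74.3%, interval 56.7% to 87.5%) overlapped both replicates and the other 9 overlapped replicate 1 alone. The corresponding share was 63.5% over all nuclear peaks and 57.6% to 69.0% in the compared left ends. Among peaks between the median score of 7.46 and the highest 10%, 10 of 288 members (3.47%, interval 1.68% to 6.29%) overlapped both, against 9.68% over all nuclear peaks. The other regions had 10.8% on the rest of IV, 9.87% on left II, 4.58% on left III, 9.32% on left V and 23.5% on left X. In the lower 50% by score, 1 of 290 members (0.34%) overlapped both, close to the 0.49% over all nuclear peaks.

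The highest members with no counterpart in replicate 2 overlapped replicate 1 alone, with scores of up to 45.3 at IV 3501517 to 3501824. The highest ones in neither replicate were at IV 895618 to 895833 with 12.5, IV 2676361 to 2676568 with 12.3 and IV 891479 to 891665 with 9.57. The highest ones in replicate 2 alone were at IV 4390466 to 4390711 with 17.2, IV 119801 to 120116 with 16.8 and IV 1153624 to 1153907 with 10.3, and replicate 2 scored them 78.7, 130 and 175. From the side of the replicates, 502 of the 555 replicate 1 peaks in this stretch and 52 of the 53 replicate 2 peaks overlapped a member or another series-wide peak. Replicate 1 peaks were met by 43 of these 53 (81.1%, interval 68.0% to 90.6%). In the other direction 39 of 555 (7.03%, interval 5.04% to 9.48%) did. In the other regions 69.7% to 88.6% of the replicate 2 peaks met replicate 1. Of their replicate 1 peaks, 16.2% on the rest of IV, 15.9% on left II, 10.9% on left III, 10.95% on left V and 21.7% on left X met replicate 2.

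Over the 37 members found in both replicates, series-wide scores had a rho of 0.83 with replicate 1 and 0.82 with replicate 2, and the replicates had 0.67 with each other. These values are over peaks, some of them tied at 3100 in the replicate lists, and the series-wide scores are not independent of those lists.

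Whether the left 5 Mb of IV stood out in density depended on the list. The series-wide list gave 122.6 peaks per Mb there, against 69.9 on the rest of IV, 72.2 on left II, 66.6 on left III, 76.8 on left V and 66.6 on left X, so that it was 1.60 to 1.84 times as dense as each of them. Replicate 1's own list gave 111 peaks per Mb, against 66.8 on the rest of IV and 55.2 to 71.6 in the other left ends. Replicate 2's own list gave 10.6 peaks per Mb, below the rest of IV (15.6), left X (17.8) and left II (17.0) and above left III (9) and left V (7). The order of the regions was thus not the same in the 2 lists, which hold 6079 and 1211 peaks. In the highest-scoring 10% of replicate 1's own list, the left 5 Mb of IV had 7.2 peaks per Mb. That was below left II (12.2) and the rest of IV, and above left V (6), left III (5.2) and left X (4.8). In that of replicate 2 it had 1.6, from 8 peaks, against 0.4 to 1.4 in the other left ends. The effect of list length was not tested, and 1 list per replicate allows no test of the difference.

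The higher density was that of peaks of middle and low score. Peaks in the highest 10% had 7 per Mb in the left 5 Mb of IV, against 8.72 on the rest of IV and 6.40 to 10.0 in the other left ends. Peaks found in both replicates had 7.40 per Mb, against 8.64 on the rest of IV and 5.60 to 11.8 in the other left ends. Between the median score and the highest 10%, where 47.0% of the members lay (background 41.2%), the left 5 Mb of IV had 57.6 peaks per Mb, against 28.8 on the rest of IV and 23.6 to 30.4 in the other left ends. In the lower 50% by score, with 47.3% of the members (background 48.8%), it had 58.0 per Mb, against 32.3 on the rest of IV and 31.8 to 46.6 in the other left ends. By bases, the members covered 4.87% of the stretch, against 3.46% of the rest of IV and 2.85% to 4.20% of the other left ends.

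**Figure D5:**
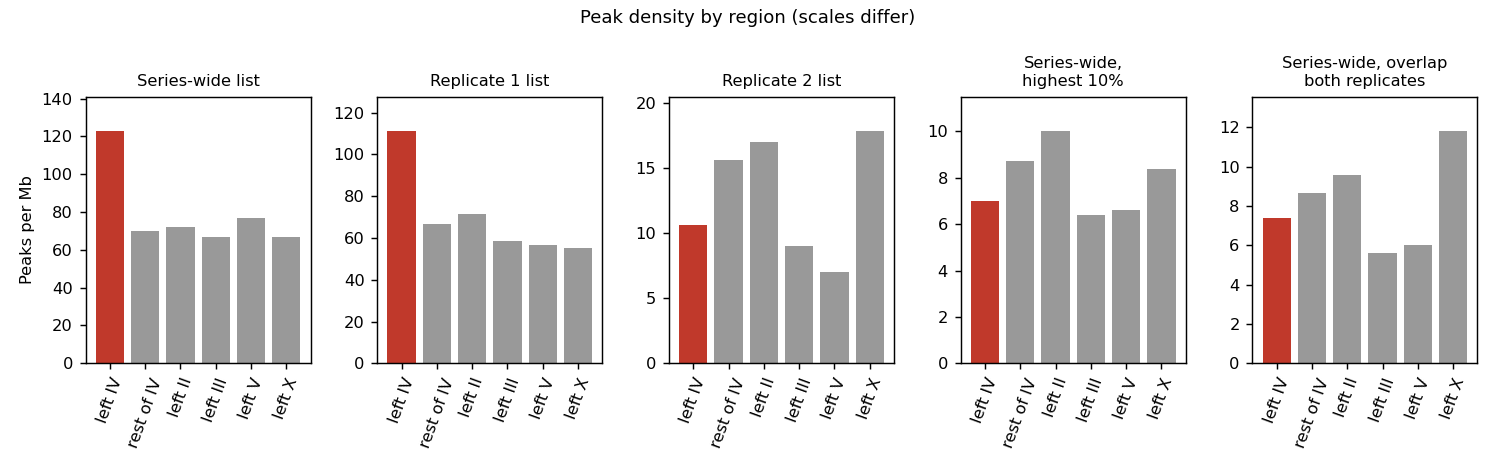
Peaks per Mb in the left 5 Mb of IV (red) and in the rest of IV and the left 5 Mb of II, III, V and X (gray), for the series-wide list, each replicate's own list, the highest-scoring 10% of series-wide peaks and those series-wide peaks with a counterpart in both replicates; each panel has its own scale. Left IV is highest in the first 2 panels (122.6 and 111 per Mb) and lies within the range of the other regions in the remaining 3.

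Seen Mb by Mb, the left end of IV held 126, 164, 127, 109 and 87 series-wide peaks from the tip inward. In each of these Mb except that from 2 to 3 Mb it had more peaks than the same Mb of II, III, V and X. From 2 to 3 Mb, V had 171, of which many lay in 1 joined region of 132 peaks, and replicate 1's own list had 71 peaks in that Mb of V against 115 on IV. In replicate 2's list the 5 Mb of IV held 15, 11, 9, 6 and 12 peaks, and in each Mb another left end had more: II with 17, X with 30, X with 18, II with 26 and X with 20. The outer 1 Mb held 20.6% of the members (interval 17.4% to 24.0%) and 29.7% of the members found in both replicates (11 of 37, interval 15.9% to 47.0%).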

How the data were processed

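ChIP-seq peak lists of 2 ZIM-3 ChIP samples and 1 series-wide list were analysed; 2 input samples entered no comparison. The authors deposited a position and a score per peak. The build is WormBase WS220 per the file headers, with MACS named for the replicate peaks and MACS v2 for the series-wide ones. Per the submitters' processing notes, the aligner was BWA and the build ce10; parameters, versions and how replicates were combined are not given in the sources used here. Per the labels' protocols, ground worms were fixed with 1% formaldehyde for 10 minutes and sonicated. A caller's threshold and the unequal list lengths set which weak peaks are listed.

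Peaks were placed by midpoint and compared with Python 3.11.15, numpy 2.4.6, pandas 2.3.3 and scipy 1.17.1; overlap counts were checked with bedtools 2.31.1 and on simulated lists, and figures were drawn with matplotlib 3.10.9. Overlap meant 1 shared bp, or, as alternatives, a reciprocal 50% or midpoints within 200 bp. The 13 mitochondrial peaks were left out. The highest 10% included ties. Intervals are exact (Clopper-Pearson) at 95%. Named sites were the 10 highest members, the 5 nearest the tip, the highest per 500 kb, the 3 widest, the 3 highest in neither replicate and in replicate 2 alone, the peaks at the limit, the densest window and the longest empty stretch; the neighbours beginning at IV 122720, 281173, 693570, 695705 and 3367390 and the stretches of repeated spacing were added after their values were seen. The members and comparisons were chosen with earlier results of these data known. Genome sequence and gene annotation were not used here.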

Additional observations from a re-analysis of the deposited data

How the results depend on the processing

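No test was run, so alternatives are judged by whether a value left its exact 95% interval or, for counts, moved by over 1.5 times; 15 of 47 alternatives did neither. The 613 members became 35 in the highest-scoring 10%, 151 after joining peaks within 10 kb and 37 when limited to peaks found in both replicates, a setting that was added with the values known and so chosen after the data were seen. The share of nuclear peaks that lay in the left 5 Mb of IV, 9.22%, was 5.26% in the highest 10%, 6.64% after joining, 7.64% by covered bases, 5.26% among peaks in both replicates, and 4.38% to 9.13% in the lists with 1 replicate left out. The share of the peaks of IV, 41.3%, was 24.3%, 33.4%, 36.0%, 25.5% and 21.4% to 39.96% in the same order. The share on IV of the peaks in the left 5 Mb of II, III, IV, V and X, 30.3%, was 18.2%, 25.4%, 26.5%, 18.3% and 17.3% to 31.4%. In each case the lower end is replicate 2's own list, which remains when replicate 1 is left out. The share of members in the outer 1 Mb, 20.6%, was 25.7% in the highest 10%, 24.6% by covered bases, 29.7% among peaks in both replicates and 18.7% to 28.3% in the replicate lists. With reciprocal overlap of 50% the overlap with replicate 1 fell from 77.3% to 67.0%, with replicate 2 from 7.34% to 4.73% and with both from 6.04% to 3.43%. The share among the highest 10%, 5.71%, was 3.10% for the highest 5% (background 5.00%) and 16.6% for the highest 20% (background 20.1%). It was 6.49% to 15.1% in the replicate lists, each ranked within its own list. The median width, 282 bp, was 1049 bp in the highest 10% and 283 to 302 bp in the replicate lists. The median distance, 2388 bp, was 29289 bp after joining and 2571 to 54656 bp in the replicate lists. The densest window began at IV 1 with windows of 50 kb (25 peaks) and at IV 1600001 with 200 kb (45 peaks). Its place changed each time, although both settings are among the 15 because only the number of peaks was judged. Counts in windows of unlike size are not directly comparable. Some shifts follow from the setting itself and are no measure of robustness. A subset or a joined list holds fewer peaks, joining lengthens the distances, and a rule of 5% or 20% changes the share. What caused the other shifts was not tested. Depth is unknown, which limits what replicate 2's shorter list can show. No paired analysis was possible because only 1 group, the ChIP samples, has peak lists in this comparison.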
